A study of Homo sapiens with 12 samples.

Results

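The human schlafen genes SLFN5, SLFN11, SLFN12 and SLFN13 were followed through 12 RNA sequencing libraries of MCF10AT, an established mammary epithelial line that the labels describe as transformed by HRasG12V. The 4 genes were taken by symbol and matched 4 of the 29094 rows of the deposited count table, with 1 RefSeq accession for each. They had been proposed from their differences between EP300 shRNA and control libraries in these same data. Those differences are therefore given as a description, without a test.

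The study compared cells carrying shRNAs against EP300 with cells carrying control hairpins. EP300 encodes p300, an acetyltransferase that acts as a transcriptional coactivator. Each of the 4 groups had 3 libraries: EP300 KD1 and EP300 KD2 each expressed a different EP300 shRNA, and NS1 and NS2 expressed non-silencing controls. All groups, controls included, had been transduced with lentivirus and selected with puromycin, and all carry the same HRAS transformation. The labels name no partner for each hairpin, so KD1 was set against NS1 and KD2 against NS2. They do not say whether a line was a pool or a clone, or whether the 3 libraries came from separate cultures, so the spread between libraries may be technical.

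Schlafen proteins share a core domain that gives the family its name. In humans most of their genes lie side by side on chromosome 17, and several are known as targets of type I interferon. SLFN11 is best known in tumour cells, where it is drawn to stressed replication forks by the single-strand binding complex RPA, blocks replication and makes cells sensitive to DNA-damaging drugs. SLFN11 and SLFN13 cut transfer RNA, SLFN12 becomes an active RNase when small molecules glue it to the phosphodiesterase PDE3A, and SLFN5 is a nuclear member linked to repression of the EMT factor ZEB1.

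Library totals ran from 31396653 to 45606950 counts, of which the 4 genes held 5848 to 7886 (0.0173% to 0.0206%). The knockdown target stood at 172 ± 5.11 CPM (counts scaled to library size with TMM factors; SD, n = 3) in NS1 and 107 ± 0.884 in EP300 KD1, and at 174 ± 8.14 in NS2 and 95.8 ± 3.87 in EP300 KD2. Every shRNA library was below every control library. The epithelial markers KRT5 (1410 to 3370 CPM as group means), KRT18 (949 to 1530 CPM) and CDH1 (181 to 383 CPM) were abundant in every group. KRT14 of the same list was not, at 0.136 to 1.03 CPM. The tested row of KRT8, a non-coding one, ran from 2.2 to 3.32 CPM. Its coding row averaged 0.0158 CPM, so the level of KRT8 is not read from these rows. KRT14 and KRT8 are named after their values were seen.

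SLFN11 and SLFN12 were the members that stood higher with both hairpins, and both have an entry among the RefSeq promoter sequences (GRCh38.p14). The 250 bases before each gene's RefSeq start are shown for this pair only, because SLFN5 and SLFN13 have no entry there. Motifs in the pair therefore cannot be set against members that moved differently. SLFN11 lies at chr17:35350305-35373621 and its window at chr17:35373622-35373871, both on the minus strand. SLFN12 lies at chr17:35410922-35433174 and its window at chr17:35433175-35433424, also on the minus strand. Capitals mark the ETS core CCGGAA and the CCAAT box on either strand (reverse complements TTCCGG and ATTGG).
SLFN11: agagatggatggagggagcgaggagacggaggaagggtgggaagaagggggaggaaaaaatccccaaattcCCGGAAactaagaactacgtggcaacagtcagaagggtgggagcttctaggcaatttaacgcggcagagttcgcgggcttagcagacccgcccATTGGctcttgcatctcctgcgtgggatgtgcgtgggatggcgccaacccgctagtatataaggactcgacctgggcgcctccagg
SLFN12: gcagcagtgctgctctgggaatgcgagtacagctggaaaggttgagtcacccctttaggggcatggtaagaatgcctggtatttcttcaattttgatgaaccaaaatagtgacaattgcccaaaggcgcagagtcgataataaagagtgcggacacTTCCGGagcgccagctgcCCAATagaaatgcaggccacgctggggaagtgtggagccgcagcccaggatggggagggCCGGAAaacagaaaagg
Both windows held an ETS core and a CCAAT box. In the SLFN11 window they began 179 and 86 bases before the start, and in the SLFN12 window the ETS core began at 94 and again at 17 bases and the CCAAT box at 76. Of 35116 RefSeq promoter windows of this length, 14.5% held the ETS core and 32% the CCAAT box. The GAS element of interferon-responsive promoters (TTCNNNGAA) was matched in the SLFN11 window, where it overlaps the ETS core, and in 6.57% of all windows. The interferon-stimulated response element was matched in neither window and in 3.02% of all windows. The GC box GGGCGG was matched in the SLFN11 window only of the 2, and in 42.6% of all. The SLFN12L window of the same length, not printed, held neither the ETS core nor the CCAAT box. It matched the interferon-stimulated response element and the GAS element. A match says only that these letters are present.

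SLFN11 (NM_152270) was close to silent in the control lines. Its 3 NS1 libraries held 21, 17 and 23 counts (0.613, 0.523 and 0.508 CPM), and those of NS2 held 11, 16 and 10 (0.348, 0.482 and 0.307 CPM). EP300 KD1 held 108, 144 and 142 counts (3.47, 4.13 and 4.12 CPM) and EP300 KD2 held 172, 191 and 162 (4.09, 5.25 and 5.00 CPM). All 6 shRNA libraries lay above all 6 controls, with no value in between. The level was 7.14-fold higher with the first hairpin (log2 2.84 ± 0.16, SE) and 12.5-fold higher with the second (log2 3.64 ± 0.18). Among 13424 rows tested these were the 76th and the 6th highest log2 changes. The control levels rest on 10 to 23 counts per library, which limits how well either ratio is known. In libraries of mixed cells, a change in the share of cells that transcribe a gene and a change in its RNA per cell cannot be told apart.

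SLFN12 (NM_001289009) was higher with both hairpins by a smaller amount. It measured 15, 16 and 14.9 CPM in NS1 against 19.3, 19.7 and 19.5 in EP300 KD1, and 14.3, 14.1 and 13.1 CPM in NS2 against 18.6, 18.8 and 19.5 in EP300 KD2. Again every shRNA library exceeded every control library. The log2 differences were 0.35 ± 0.05 (27.9% higher) and 0.45 ± 0.05 (36.8% higher). The shRNA libraries were tight, with a coefficient of variation of 0.91% in EP300 KD1 and 2.45% in EP300 KD2.

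SLFN5 (NM_144975; chr17:35243072-35273655), the only member on the plus strand, differed in opposite directions with the 2 hairpins. Its values were 121, 120 and 113 CPM in NS1 and 139, 136 and 135 in EP300 KD1, so that the first set was separated with the shRNA libraries on top. In the second set they were 140, 150 and 144 CPM in NS2 and 102, 106 and 103 in EP300 KD2, separated the other way. The log2 differences were 0.21 ± 0.03 (16% higher) and -0.48 ± 0.03 (a change of -28.3%). The first depended on the control: EP300 KD1 was above NS1 but below NS2, and against both controls together its log2 difference was 0.07 ± 0.03. For the second hairpin it was -0.33 ± 0.03 against both controls together, with all 3 libraries below all 6 controls.

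SLFN13 (NM_144682; chr17:35435096-35449766) showed the reverse arrangement. It measured 45.9, 50.3 and 45.5 CPM in NS1 against 35.2, 33.6 and 36.6 in EP300 KD1, and 43.8, 45.1 and 44.4 in NS2 against 51.3, 50.5 and 53.3 in EP300 KD2. EP300 KD1 was the lowest of the 4 groups and EP300 KD2 the highest, with no overlap in either direction. The log2 differences were -0.42 ± 0.04 (a change of -25.5%) and 0.22 ± 0.04 (16.4% higher). Against both controls together the second was 0.18, and with library totals in place of TMM scaling it was 0.29.

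**Figure D1:**
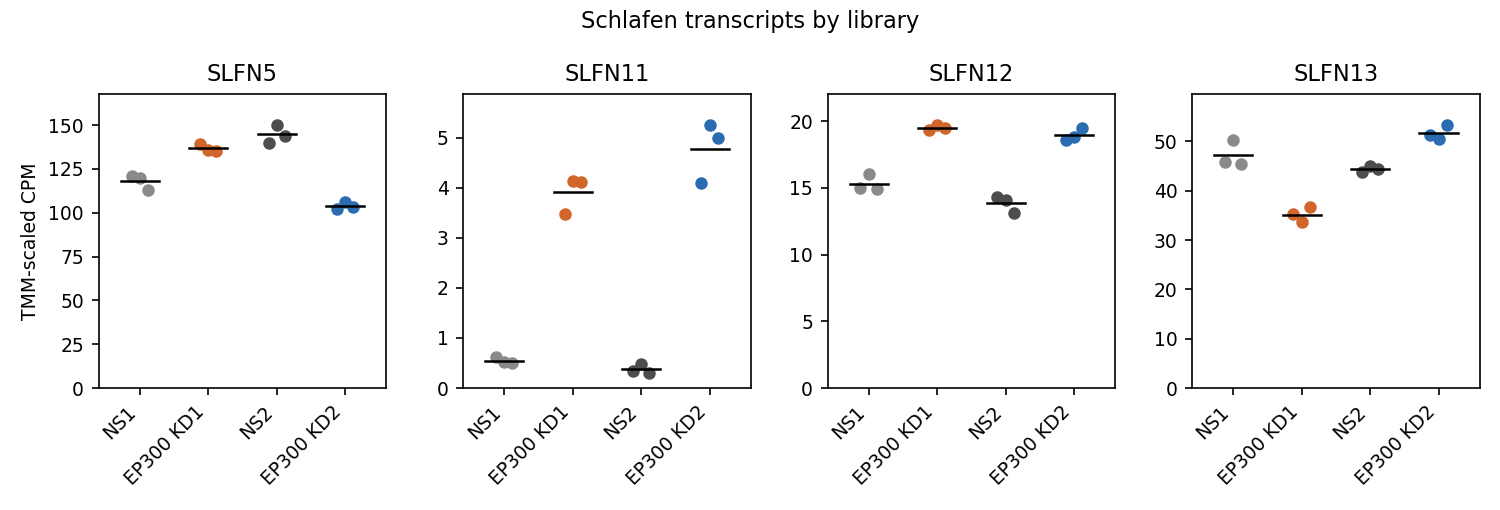
TMM-scaled CPM (vertical axis, linear from 0) of the 4 genes in each of the 12 libraries by group. Points are libraries and lines are means of 3. SLFN11 and SLFN12 are higher in both EP300 shRNA groups. SLFN5 and SLFN13 lie on opposite sides of the controls of the same number with the 2 hairpins.

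In each set 3 members lay wholly above and 1 wholly below the control of the same number. Over all rows tested, 33.9% lay wholly above and 33.8% wholly below with the first hairpin, and 30.9% and 32.6% with the second. Separation in opposite directions, as in SLFN5 and SLFN13, was found in 12.9% of all rows, separation upward in both sets, as in SLFN11 and SLFN12, in 16.8%, and downward in both, as in no member, in 18.3%. The hairpins' changes differed by edgeR's test in 50.8% of all rows, 21.6% with the second higher and 29.2% with it lower. Since the members were chosen on these contrasts, nothing is read from these counts. The median absolute log2 change over all rows was 0.24 with the first hairpin and 0.20 with the second. Counted from the lowest change, SLFN13 ranked 1860 with the first hairpin and SLFN5 ranked 1706 with the second. Counted from the highest, SLFN12 ranked 2585 and 1393.

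**Figure D2:**
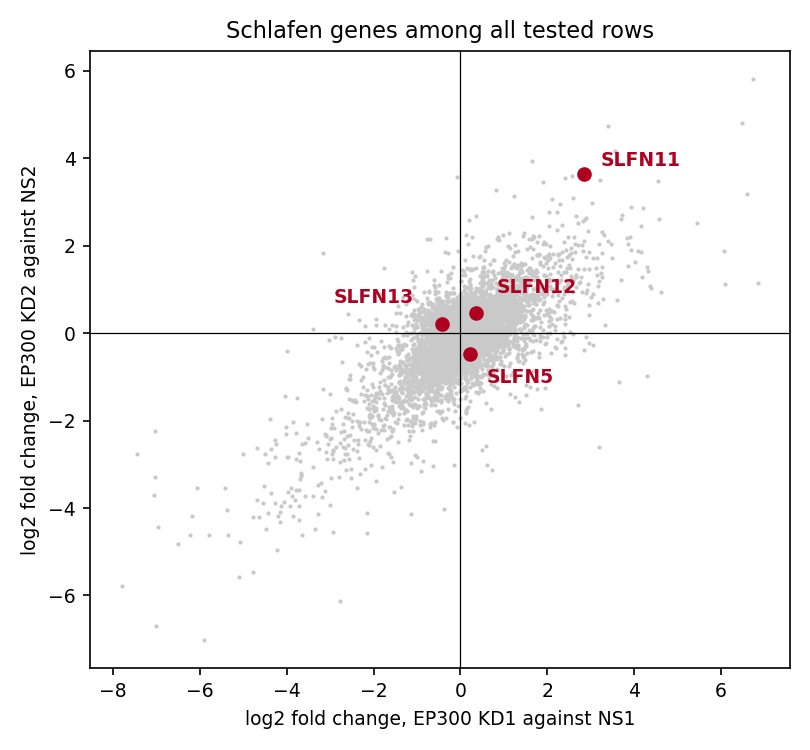
Log2 fold change with the first hairpin (horizontal axis) against that with the second (vertical axis) for all 13424 rows tested, 1 grey point each, with the 4 genes in red. SLFN11 (2.84 and 3.64) lies at the upper edge, whereas the other members lie within the central cloud.

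The 2 control lines were also set side by side. Their libraries are among those on which the members were chosen, so the values are again given without a test. SLFN5 stood at 145 ± 5.29 CPM in NS2 and 118 ± 4.12 CPM in NS1 (SD, n = 3), a log2 difference of 0.30 ± 0.03, with 3 of 3 NS2 libraries above all NS1 libraries. The other members stood lower in NS2, by log2 differences of -0.52 ± 0.24 for SLFN11, -0.14 ± 0.05 for SLFN12 and -0.08 ± 0.04 for SLFN13, and their libraries did not overlap either. Over all rows, 20.3% lay wholly higher and 20% wholly lower in NS2, and edgeR's test called 27.5% (14.2% higher and 13.4% lower).

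The 2 EP300 shRNA lines were described in the same way, for the same reason without a test. SLFN5 stood at 104 ± 2.15 CPM in EP300 KD2 and 137 ± 2.34 CPM in EP300 KD1, a log2 difference of -0.40 ± 0.03. SLFN13 stood at 51.7 ± 1.43 CPM in EP300 KD2 and 35.1 ± 1.49 CPM in EP300 KD1, a log2 difference of 0.56 ± 0.04. For both genes the 3 libraries of one line lay apart from the 3 of the other. SLFN11 stood at 4.78 ± 0.609 CPM in EP300 KD2 and 3.91 ± 0.381 CPM in EP300 KD1, with a log2 difference of 0.29 ± 0.12 and libraries that overlapped. SLFN12 differed by -0.04 ± 0.05, and its libraries overlapped too. Over all rows, 26.6% lay wholly higher and 37.3% wholly lower in EP300 KD2, and edgeR's test called 59.7% (24.6% higher and 35.1% lower). With library totals in place of TMM, 51.5% of these calls were higher in place of 41.1%, and with the second hairpin against its control 61.3% in place of 48.2%.

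Levels were compared between the members per kilobase of the counted transcript (10591 bases for SLFN5, 4910 for SLFN11, 2423 for SLFN12 and 8469 for SLFN13). On this scale SLFN5 was the most abundant member in every group, at 11.1 ± 0.389 CPM per kb in NS1, 12.9 ± 0.221 in EP300 KD1, 13.7 ± 0.499 in NS2 and 9.80 ± 0.203 in EP300 KD2. SLFN12 followed at 5.72 to 8.05 CPM per kb as group means, then SLFN13 at 4.15 to 6.11. SLFN11 remained the lowest, at 0.112 ± 0.0116 CPM per kb in NS1, 0.0772 ± 0.0186 in NS2, 0.795 ± 0.0776 in EP300 KD1 and 0.973 ± 0.124 in EP300 KD2. The neighbours SLFN12 and SLFN13 were close in NS2 (5.72 ± 0.275 and 5.24 ± 0.0763) and farthest apart in EP300 KD1 (8.05 ± 0.0732 and 4.15 ± 0.176).

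The summed level of the 4 genes was 23.1 ± 0.817 CPM per kb in NS1, 25.9 ± 0.142 in EP300 KD1, 24.7 ± 0.657 in NS2 and 24.7 ± 0.424 in EP300 KD2. SLFN5 made up 55.3 ± 0.928% of the sum in NS2 and 39.7 ± 0.868% in EP300 KD2, but 48.2 ± 1.10% in NS1 and 49.8 ± 0.714% in EP300 KD1. SLFN11 held 0.483 ± 0.05% and 0.311 ± 0.0661% in the controls NS1 and NS2, and 3.07 ± 0.311% and 3.94 ± 0.446% in EP300 KD1 and EP300 KD2. SLFN12 held 27.3% and 23.1% in the controls and 31.1% and 31.7% with the hairpins. With the length of all annotated exons in place of the counted transcript, a setting added after seeing the data, SLFN13 stood above SLFN12 in NS1 (24.7% against 21.0%), NS2 and EP300 KD2 but not in EP300 KD1.

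**Figure D3:**
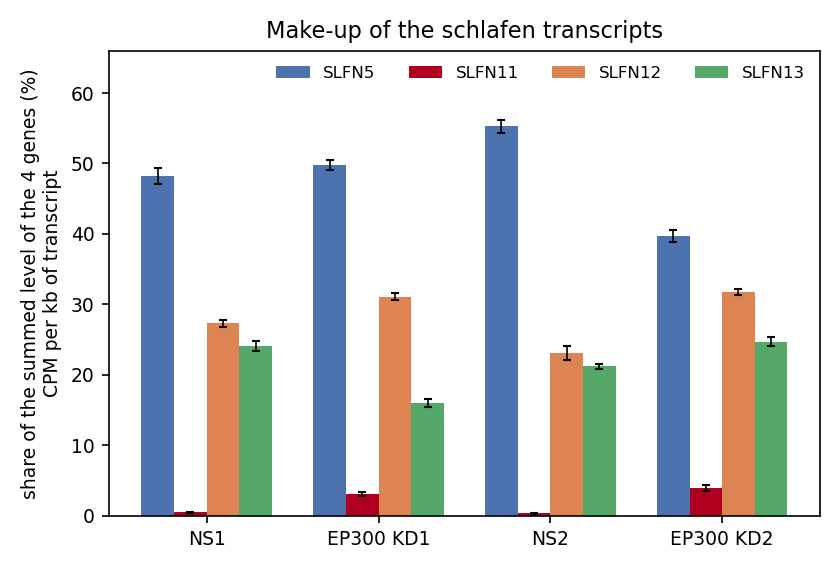
Share of each gene in the summed per-kilobase level of the 4 genes (vertical axis, %) by group, as means of 3 libraries with SD. SLFN5 is the tallest bar in all 4 groups at 55.3% in NS2 and 39.7% in EP300 KD2, while SLFN11 is near 0 in both controls.

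Similar sequence can divert reads between paralogs. SLFN11 and SLFN13 shared 617 stretches of 50 bases, 12.7% of those in the SLFN11 transcript and 7.33% of those in SLFN13. At 100 bases the shares were 8.77% and 5.04%. SLFN12 shared 2.06% of its 50-base stretches with SLFN12L and none at 100 bases, and SLFN5 shared none at any of the 3 lengths tried. Within the schlafen family, the values of SLFN11 and SLFN13 are therefore more open to such diversion than those of SLFN5 and SLFN12. Sequence outside the family was not compared. SLFN11 was higher in both EP300 shRNA lines, whereas SLFN13 was lower in one and higher in the other. The part of diverted reads in these differences was not tested.

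The remaining schlafen genes were scarce. SLFN12L, which lies beyond SLFN13 in the cluster, had 13 to 34 counts per library. It differed by 0.42 ± 0.23 (log2) with the first hairpin (edgeR adjusted p = 0.11) and rose by 0.66 ± 0.26 with the second (edgeR adjusted p = 0.034). That call was lost in DESeq2 (adjusted p = 0.12), against both controls together (adjusted p = 0.1 in edgeR) and without any 1 of 4 libraries: NS2 replicates 2 and 3 and EP300 KD2 replicates 1 and 2 (edgeR adjusted p from 0.098 to 0.14). Against both controls together the first hairpin's difference was 0.68 (edgeR adjusted p = 0.0069). SLFN14 had 1 count in total over the 12 libraries, and SLFNL1, on chromosome 1, had 3 to 10 counts per library. Neither was tested.

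The schlafen cluster spans 318 kb of chromosome 17 from the start of SLFN5 to the end of SLFN14, and within it no direction was common to all 4 members. SLFN12 and SLFN13 adjoin each other on the minus strand, yet with the first hairpin SLFN12 was higher (0.35) and SLFN13 lower (-0.42). Nearby tested genes on both sides were also mixed. On the SLFN5 side, NLE1, a ribosome assembly factor, fell by 0.41 ± 0.03 with the first hairpin (edgeR adjusted p = 4.7e-09) and differed by 0.01 ± 0.03 with the second (adjusted p = 0.84). The recombination gene RAD51D did not pass with either (-0.57 ± 0.36 and -0.51 ± 0.35). Its tested row held only 117 counts over all libraries and its other rows 0, so little can be read from this. DNA ligase gene LIG3 fell by 0.10 ± 0.04 (edgeR adjusted p = 0.033) and rose by 0.10 ± 0.04 (adjusted p = 0.023), but both calls were fragile. The first was lost with upper-quartile scaling (edgeR adjusted p = 0.083) and without NS1 replicate 2 (0.22) or EP300 KD1 replicate 1 (0.059), 2 (0.057) or 3 (0.078). The second was lost without NS2 replicate 1 (edgeR adjusted p = 0.12) or EP300 KD2 replicate 2 (0.065). Against both controls together the LIG3 differences were -0.19 and 0.20 and passed (edgeR adjusted p = 5.1e-05 and 2.3e-05). Beyond SLFN14, AP2B1, a clathrin adaptor gene, passed with neither (-0.03 ± 0.02 and -0.01 ± 0.02), except that with library totals the second was 0.06 and passed (edgeR adjusted p = 0.017). RASL10B, which encodes a RAS-like protein, rose with both (0.87 ± 0.15 and 1.11 ± 0.16, edgeR adjusted p = 6.1e-05 and 6.1e-06). Over all rows 64.9% were called with the first hairpin and 57.8% with the second.

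**Figure D4:**
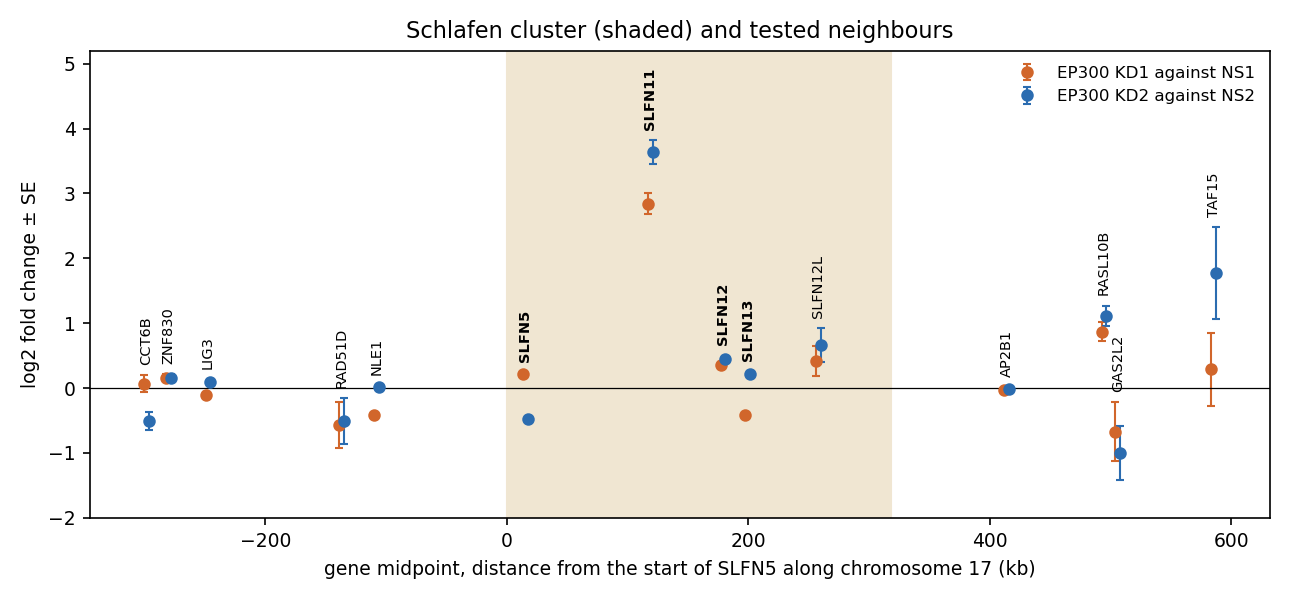
Log2 fold change with SE (vertical axis) of tested genes within 500 kb of the schlafen cluster against the distance of its midpoint from the SLFN5 start (kb), for the first (orange) and second (blue) hairpin. The cluster is shaded; SLFN11 stands at 2.84 and 3.64, and its neighbours SLFN5 and SLFN12 at 0.21 and -0.48 and at 0.35 and 0.45.

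Genes with the most similar profiles were sought among 11376 rows by the root-mean-square distance between centred log2 CPM over the 12 libraries. SLFN5 was nearest to SNX29 (distance 0.050), CDC25B (0.052) and AZI2 (0.060), which differed by 0.15 to 0.29 with the first hairpin and -0.44 to -0.38 with the second. SLFN12 was nearest to NIN (0.034), RIC8B (0.044) and WDR35 (0.045). SLFN13 was nearest to TMEM97 (0.039), TTF2 (0.050) and MRTO4 (0.050), all lower with the first and higher with the second hairpin. SLFN11 was nearest to RAB3B (0.313), SYDE1 (0.360) and SP140 (0.400). RAB3B differed by 3.21 with the first hairpin and 3.50 with the second. This distance grows with the size of a gene's own changes, so it is not compared between members. The median distance over all candidates was 0.248 for SLFN5, 0.265 for SLFN12, 0.266 for SLFN13 and 1.578 for SLFN11. These distances describe libraries that share their groups, and no test was made.

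Since the family is known for its response to interferon, the receptors and signalling genes of that pathway were counted beside it. Of 20 listed, 17 were tested. With the first hairpin 12 rose and 0 fell (median log2 0.31, against -0.01 over all rows). With the second 6 rose and 4 fell (median 0.11). Background shares were 32.6% higher and 32.3% lower with the first hairpin, and 27.9% and 29.9% with the second. The kinase gene JAK2 rose by 0.87 ± 0.05 and 0.54 ± 0.06, the receptor gene IFNAR2 by 0.80 ± 0.04 and 0.47 ± 0.05, and the feedback inhibitor gene SOCS3 by 1.5 ± 0.06 and 0.80 ± 0.06 (all edgeR adjusted p at most 9.1e-08). These were named for the smallest p over both hairpins, which favours the same direction with both. IFNAR1 (0.26 and -0.18), IFNGR1 (0.13 and -0.41) and JAK1 (0.12 and -0.10) rose with the first and fell with the second. They are named after their values were seen. SLFN11 and SLFN12 were higher with both hairpins, SLFN5 was higher and then lower, and SLFN13 lower and then higher.

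The interferon-stimulated genes, the class to which schlafen genes are usually assigned, were counted in the same way. Of 29 listed 20 were tested: 7 rose and 7 fell with the first hairpin (median -0.04), and 6 rose and 9 fell with the second (median -0.15). Over all rows the shares were 32.6% higher and 32.3% lower with the first and 27.9% and 29.9% with the second, so the first counts were near the background. The antiviral RNA sensor gene RIGI rose (0.62 ± 0.04 and 0.49 ± 0.04). OAS1, which makes the activator of RNase L, fell (-1.95 ± 0.06 and -1.76 ± 0.06), as did the antiviral gene TRIM22 (-0.42 ± 0.04 and -0.99 ± 0.04).

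SLFN11 acts at stressed replication forks, so 15 replication stress factors were counted, and all were tested. DHX9 was tested only by a non-coding row (0.57 CPM on average), its coding row being at 0 throughout. CHEK1 was tested by a row of 1.67 CPM on average. Neither was called with either hairpin, and both are named after their values were seen. With the first hairpin 2 rose and 10 fell (median -0.24), and with the second 10 rose and 1 fell (median 0.19). Over all rows 32.6% were called higher and 32.3% lower with the first, and 27.9% and 29.9% with the second. MCM3, a helicase subunit, fell by 1.11 ± 0.03 and rose by 0.44 ± 0.03. DTL, which targets CDT1 for destruction, fell by 0.90 ± 0.03 and rose by 0.32 ± 0.03. The checkpoint kinase gene WEE1 fell by 0.74 ± 0.04 with the first, and its call with the second (-0.10 ± 0.04, edgeR adjusted p = 0.026) was lost with every other scaling, without a filter, in DESeq2 and without NS2 replicate 1 or 3 or EP300 KD2 replicate 1 or 2 (adjusted p from 0.056 to 0.52). Against both controls together the WEE1 difference with the second hairpin was -0.14 and passed (edgeR adjusted p = 5.1e-04). SLFN11 itself was higher with both hairpins, while SLFN13 had the same pair of directions as MCM3 and DTL.

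Regulators linked to SLFN11 transcription came to 9 tested of 13 listed. With the first hairpin 3 rose and 5 fell (median -0.07), and with the second 7 rose and 0 fell (median 0.22). Background shares were 32.6% higher and 32.3% lower with the first, and 27.9% and 29.9% with the second. ETS1, an ETS-family activator, rose by 0.64 ± 0.03 and 0.49 ± 0.03. The DNA methyltransferase genes DNMT3A (1.02 ± 0.08 and 0.50 ± 0.08) and DNMT3B (0.73 ± 0.10 and 1.21 ± 0.09) rose with both. The ETS core lies in both promoter windows printed above but not in that of SLFN12L, and SLFN5 and SLFN13 had no window. Whether ETS1 binds there was not measured.

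Partners of the other members were few. For SLFN12, PDE3A and the related PDE3B were listed at 0 in all libraries. Coding rows of HDAC2 and DHX9 were also at 0, so a 0 is not read here as absence of the transcript. For SLFN5, ZEB1 rose by 2.26 ± 0.11 and 1.81 ± 0.11 (edgeR adjusted p = 7.7e-13 and 7.1e-11), with group means of 2.50 CPM in NS1, 12 in EP300 KD1, 2.16 in NS2 and 7.59 in EP300 KD2. Against the control of the same number, SLFN5 was higher in EP300 KD1 and lower in EP300 KD2. Among 5 other antiviral or RNA-cutting nucleases, all tested, 3 rose and 0 fell with the first hairpin and 2 rose and 1 fell with the second. The shares over all rows were 32.6% higher and 32.3% lower with the first, and 27.9% and 29.9% with the second. SAMHD1 (0.59 ± 0.06 and 0.91 ± 0.06) and ZC3H12A (1.41 ± 0.04 and 0.52 ± 0.04) rose with both, and ISG20 rose by 0.99 ± 0.10 and then fell by 0.39 ± 0.10.

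**Figure D5:**
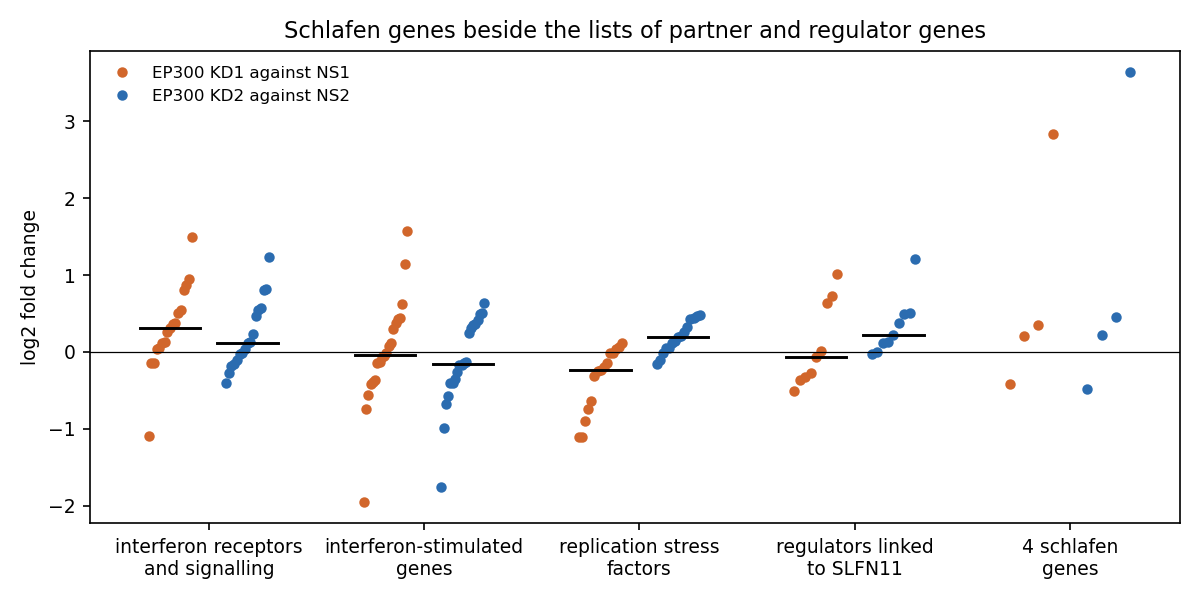
Log2 fold change (vertical axis) of each tested gene in 4 lists and of the 4 schlafen genes, with the first (orange) and second (blue) hairpin; black lines are list medians. The replication stress factors have medians of -0.24 and 0.19, and SLFN11 lies above every gene of these 4 lists in both comparisons.

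Markers of other cell types moved between the same groups. Summed leukocyte markers ran from 52.1 to 63.2 CPM in NS1 and 67.3 to 74.5 in EP300 KD1, and from 65.7 to 67.4 in NS2 and 37.9 to 40.1 in EP300 KD2. Of 10 leukocyte genes 3 were tested. CD68 rose (1.67 ± 0.07 and 0.37 ± 0.07) and CD14 fell (-0.65 ± 0.06 and -1.62 ± 0.07), while MS4A1 and TYROBP were listed at 0. Summed fibroblast markers were 16.8 to 18.2 CPM in NS1, 67.6 to 72.9 in EP300 KD1, 13.5 to 14.7 in NS2 and 21.9 to 23.7 in EP300 KD2. Of 8 listed 4 were tested, of which 4 rose with the first hairpin and 3 with the second, and LUM, COL1A2 and COL3A1 were listed at 0. Summed endothelial markers were 28.7 to 32.6 CPM in NS1, 9.43 to 11.2 in EP300 KD1, 38.2 to 40.5 in NS2 and 5.33 to 6.04 in EP300 KD2. Nearly all of this sum was PECAM1 (29.3 CPM as the NS1 mean), which fell (-1.60 ± 0.07 and -2.84 ± 0.07). The other tested gene of the 4, KDR, named after its values were seen, rose by 0.71 ± 0.23 with the first hairpin (edgeR adjusted p = 0.01) and differed by 0.32 ± 0.34 with the second (adjusted p = 0.51). Summed epithelial markers were 4800 to 4880 CPM in NS1 and 3000 to 3090 in EP300 KD1, and 5590 to 5660 in NS2 and 3010 to 3060 in EP300 KD2. Of 7 epithelial genes, all tested, 6 fell with each hairpin. The 1 that rose with the first was KRT8, tested only by its non-coding row. Beside all these marker counts, 32.6% of all rows were higher and 32.3% lower with the first hairpin, and 27.9% and 29.9% with the second. Here too a 0 is not read as absence of the transcript. The part of these markers in the schlafen differences was not tested.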

How the data were processed

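MCF10AT RNA was sequenced from stranded mRNA libraries, per the labels' protocols, in 4 groups of 3. The deposited counts per RefSeq accession were made with HISAT2 2.1.0 and featureCounts on hg38, per the submitters' processing notes; no source used here gives the counting settings. Symbols came from RefSeq tables for 28134 rows and from GENCODE for 486, and 474 had none. Library totals of 31396653 to 45606950 counts set the precision. All 12 libraries were fitted together with edgeR 4.0.16 (R 4.3.3; filterByExpr, TMM, quasi-likelihood test, Benjamini-Hochberg, threshold 0.05), which tested 13424 rows; the scripts were tested on simulated data. Replicates differed by 1.86 to 4.54 times counting noise (chi-square per degree of freedom), so none was merged. Members and gene lists were chosen with earlier results of these data known, and the members' planned tests between controls and between shRNA lines, which reuse the same libraries, are given without p-values. From each list up to 3 genes of at least 1 CPM with the smallest p over both hairpins were named, with the 3 nearest tested genes on each side of the cluster and the 3 most similar profiles per member; some results under this rule are not reported here. Alternatives were other scalings, no filter, DESeq2 1.42.0, pooled controls, fits of 2 groups, left-out libraries and a replicate block.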

Additional observations from a re-analysis of the deposited data

Results flagged for a closer look

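SLFN5 and SLFN13 lay on opposite sides of the controls of the same number with the 2 hairpins in every library. For SLFN13 this held against either control. For SLFN5 it depended on the control: EP300 KD1 lay below NS2, and its log2 difference was 0.07 ± 0.03 against both controls together. SLFN5 also stood higher in NS2 than in NS1 (0.30 ± 0.03), which enters the difference between its 2 changes. The difference between the hairpins' log2 changes was -0.69 for SLFN5 and 0.64 for SLFN13. It was not tested, because the genes had been chosen on the 2 changes from which it is formed.

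The other named genes listed below had log2 changes that differed between the 2 hairpins by edgeR's test, as in 50.8% of all rows. OAS1 (edgeR adjusted p = 0.083), RIGI (0.08) and SLFN12L (0.6) were among the named genes that did not pass. The second hairpin gave the lower change for JAK2 (-0.33), IFNAR2 (-0.33), SOCS3 (-0.71), TRIM22 (-0.57), DNMT3A (-0.52), ETS1 (-0.15), ZC3H12A (-0.89), ISG20 (-1.38) and ZEB1 (-0.45). It also did for the cell type markers CD68 (-1.30), CD14 (-0.97), COL1A1 (-0.56), PDGFRA (-2.88), DCN (-1.32), PECAM1 (-1.24), KRT5 (-0.55) and CDH1 (-0.20). It gave the higher change for WEE1 (0.64), MCM3 (1.55), DTL (1.22), DNMT3B (0.48), SAMHD1 (0.32), KRT18 (0.20), LIG3 (0.20) and NLE1 (0.41). The ZEB1 call was lost with library totals, without a filter, in DESeq2 and without NS1 replicate 1, NS2 replicate 2 or EP300 KD1 replicate 2 or 3 (adjusted p from 0.05 to 0.078), and the ETS1 call with library totals (0.17) and without a filter (0.094).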

How the results depend on the processing

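All 72 counts of called rows stayed within 1.5 times of the reported ones. The members' EP300 differences kept their direction under all 14 alternatives, SLFN11 at 2.78 to 3.09 and 3.38 to 3.86 (log2) and SLFN5 at 0.07 to 0.23 and -0.50 to -0.33. SLFN12 between the shRNA lines turned to 0.01 with library totals, 0.01 without a filter and 0.00 in a fit of those groups. AP2B1 turned to 0.00 with the first hairpin against both controls; with the second it turned to 0.01 (DESeq2 size factors and DESeq2), 0.04 (upper quartile and no filter), 0.06 (library totals, adjusted p = 0.017 in edgeR) and ranged from -0.02 to 0.01 with a library left out, 0.00 without NS2 replicate 3. NLE1 with the second turned to -0.03 against both controls and ranged from -0.01 (without EP300 KD2 replicate 1) to 0.03 with a library left out. The cause was not tested. With library totals alone, the share of calls that were higher moved from 48.2% to 61.3% with the second hairpin and from 41.1% to 51.5% between the shRNA lines. Same-numbered libraries deviated with correlations of -0.04 to 0.04, so the numbers were not taken as pairs; a replicate block gave 8748, 7802, 3764, 8051 and 6858 called rows against 8711, 7762, 3697, 8010 and 6818. SLFN11 in the controls rests on 10 to 23 counts.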
